A study of Mus musculus with 15 samples.

Results

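The 53 cell cycle genes described here are 25 genes of DNA replication and 28 genes of mitosis, followed in mouse Purkinje cells (PCs), the output neurons of the cerebellar cortex, over the first postnatal weeks. They were chosen by name: each is a row of the count files whose Ensembl mouse gene ID carries one of 53 listed symbols in GENCODE release M21 (GRCm38). All 53 symbols matched a row, among 38561 genes in the files, and all 53 passed the filter on low counts. The 15 libraries came from PCs cut out of cerebellar sections by laser capture microdissection, with 3 biological replicates at each of 5 ages (birth or P0, then P4 and P8, then P14 and P21), from untreated male mice of the strain labelled C56/BL6 (C57/BL6 in the study's methods). From P4 on, single PC soma were captured. The P0 libraries came from groups of PCs instead, so the first time point differs from the others in capture as well as in age. RNA was converted to cDNA and amplified with a kit for very small inputs, and depth ranged from 3409371 to 7814951 counts on genes. The 6 PC marker genes examined (Calb1, Itpr1, Pcp2, Pcp4, Car8, Ppp1r17) all rose with age, and their summed level went from 5326 ± 736 CPM (counts scaled to 1000000 per library) at P0 to 42889 ± 5282 CPM at P21 (mean ± SD, n = 3). Replicates are separate biological samples of 1 age.

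Before a cell divides, the MCM proteins are loaded on DNA as an inactive helicase, which Cdc45 and the GINS complex switch on at the start of S phase. Polymerases and the sliding clamp Pcna then copy the template, with nucleotides supplied by ribonucleotide reductase, thymidylate synthase and thymidine kinase. In mitosis, Cdk1 with cyclins A and B drives entry, kinetochore and spindle proteins align and pull the chromosomes, the passenger complex of Aurkb, Birc5 and Cdca8 corrects attachments, and the midzone proteins divide the cell. In dividing cells E2F factors switch on many of the replication genes, and the DREAM and MuvB complexes act through CHR elements on many of the mitosis genes. The CCAAT box is a further promoter element, counted below beside these. PCs are born in the embryo and do not divide after birth, whereas granule cell precursors in the external granular layer, precursors of interneurons and glial progenitors in the same tissue do.

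Promoters of replication and of mitosis members held these elements in different shares. RefSeq promoters (GRCm38.p6, 250 bases before to 50 bases after each transcription start) were available here for 41 of the 53 members, as 20 promoters of replication members and 23 of mitosis members. Matches on either strand were counted for the CHR (TTTGAA or TTCGAA), the CCAAT box (CCAAT) and an E2F core (TTCCCGC or TTGGCGC). A match of 1 motif may overlap a match of another. A CHR was found in 19 of 23 mitosis promoters (82.6%), in 3 of 20 replication promoters (15%) and in 19.2% of the 32851 mouse promoters in the table. The E2F core had the opposite order, with 11 of 20 replication promoters (55%), 5 of 23 mitosis promoters (21.7%) and 6.81% of all promoters. CCAAT boxes were present in 70% of replication promoters, 82.6% of mitosis promoters and 37.4% of all promoters, and 73.9% of the mitosis promoters held both a CCAAT box and a CHR, against 15% of the replication promoters and 7.52% of all. These are matches of letters and not sites shown to be bound, and the shares were not tested.

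**Figure D1:**
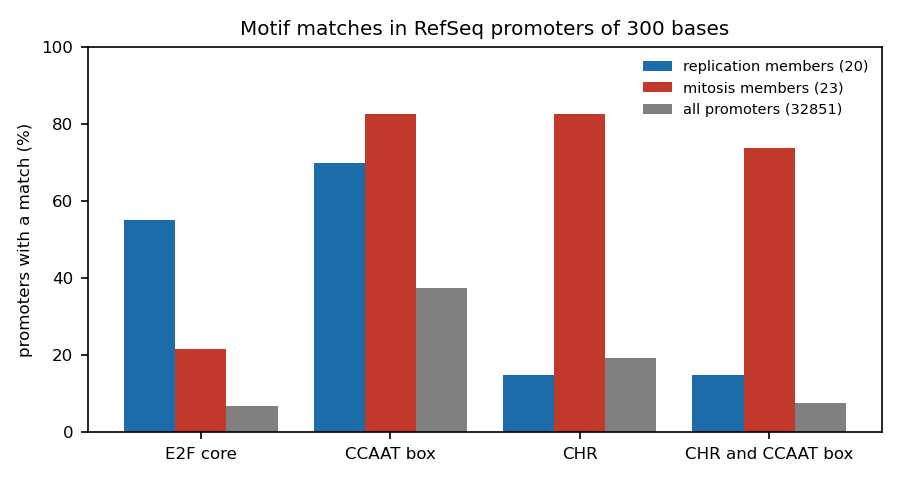
Share of RefSeq promoters (vertical axis, percent) that hold an E2F core, a CCAAT box, a CHR, or a CHR together with a CCAAT box, for the 20 promoters of replication members, the 23 of mitosis members and all 32851 promoters. The red bar for the CHR (82.6%) stands above the blue one (15%), and the order is turned round for the E2F core (21.7% against 55%).

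The 150 bases just before the start are given for the 2 replication members and the 2 mitosis members with the smallest adjusted p of the slope for which the table held a promoter, since they show these elements in the genes with the clearest falls (GRCm38.p6). Capitals mark matches, and distances are counted back from the start to the first base of a match. Mcm6 (ENSMUSG00000026355), a helicase subunit, has a pair of E2F cores, 109 and 46 bases before the start, and CCAAT boxes at 57 and 14 bases (chr1:128359706-128359855, minus strand).
Mcm6: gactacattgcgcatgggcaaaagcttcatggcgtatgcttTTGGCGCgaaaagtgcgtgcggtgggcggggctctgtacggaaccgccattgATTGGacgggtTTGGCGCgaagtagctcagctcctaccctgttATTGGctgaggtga
Rrm2 (ENSMUSG00000020649), the small subunit of ribonucleotide reductase, has 1 CCAAT box, 50 bases before the start, and no CHR or E2F core in this stretch (chr12:24708104-24708253, plus strand).
Rrm2: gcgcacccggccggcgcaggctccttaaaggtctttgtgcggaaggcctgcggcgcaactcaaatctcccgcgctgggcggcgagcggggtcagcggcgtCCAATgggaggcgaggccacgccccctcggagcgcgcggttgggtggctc
Mki67 (ENSMUSG00000031004), which coats mitotic chromosomes, has CHR elements at 116 and 98 bases, a CCAAT box at 141 bases and an E2F core at 67 bases (chr7:135716380-135716529, minus strand).
Mki67: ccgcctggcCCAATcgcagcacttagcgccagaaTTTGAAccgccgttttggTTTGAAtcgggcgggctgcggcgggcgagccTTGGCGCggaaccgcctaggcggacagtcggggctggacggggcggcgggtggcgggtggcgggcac
Top2a (ENSMUSG00000020914), the topoisomerase that untangles sister chromatids, has CHR elements at 140, 120 and 23 bases and 4 CCAAT boxes (chr11:99024190-99024339, minus strand).
Top2a: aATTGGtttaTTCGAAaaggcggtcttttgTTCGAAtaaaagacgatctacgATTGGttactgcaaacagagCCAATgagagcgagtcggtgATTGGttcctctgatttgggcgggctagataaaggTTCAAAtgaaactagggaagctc

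Most of the cell cycle genes fell with age, and the mitosis members had more calls and a steeper median slope than the replication members, a difference that is given as counts and medians and was not tested. Of the 53 members, 37 fell with postnatal day and none rose in edgeR's quasi-likelihood test of a slope per day (Benjamini-Hochberg adjusted over all 14293 genes tested, threshold 0.05), while 14.1% of all genes tested fell and 12.1% rose. At an unadjusted p under 0.05, 43 members fell and 0 rose. DESeq2 and limma-voom called 0 rising members as well. Among the replication members 12 of 25 fell, with a median slope over all 25 of −0.20 log2 units a day. Among the mitosis members 25 of 28 fell, with a median of −0.40. The median over all genes was −0.0077. Because many late counts were 0, slopes were also taken by least squares with every value under 3 counts raised to 3 counts, which gave medians of −0.14 for replication, −0.23 for mitosis and 0.00083 for all genes. A test of any difference between time points, which does not assume a steady course, called 29 members (10 replication, 19 mitosis), against 19.3% of all genes.

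Summed over genes, the replication members stood at 583, 592 and 1039 CPM in the 3 samples of P0 and at 549, 326 and 659 CPM in those of P4. The later sums were 285, 209.8 and 241 CPM at P8, then 152, 129 and 178 CPM at P14, and finally 103, 136 and 190.5 CPM at P21. The mitosis members stood at 1201, 1003 and 1016 CPM in the samples of P0 and at 537, 434 and 768 CPM in those of P4. Their later sums were 232, 309.6 and 244 CPM at P8, then 59.01, 55.1 and 51.95 CPM at P14, and finally 36.01, 39.6 and 29.1 CPM at P21. For both sums the P0 and P4 samples were above all later ones, and the P8 samples were above all P14 and P21 samples. From P14 to P21 the replication sums overlapped and the mitosis sums did not. As means the replication sum at P21 was 19.4% of its P0 value and the mitosis sum 3.25%. In each sample the ratio of the mitosis to the replication sum was 2.06, 1.69 and 0.978 at P0, 0.977, 1.33 and 1.17 at P4 and 0.813, 1.48 and 1.01 at P8. The late ratios were 0.389, 0.429 and 0.291 at P14 and 0.348, 0.292 and 0.153 at P21. The 6 late ratios all lay below the 9 earlier ones, while P0, P4 and P8 overlapped. In bulk libraries of this kind, fewer cells of a type and less RNA per cell cannot be told apart.

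**Figure D2:**
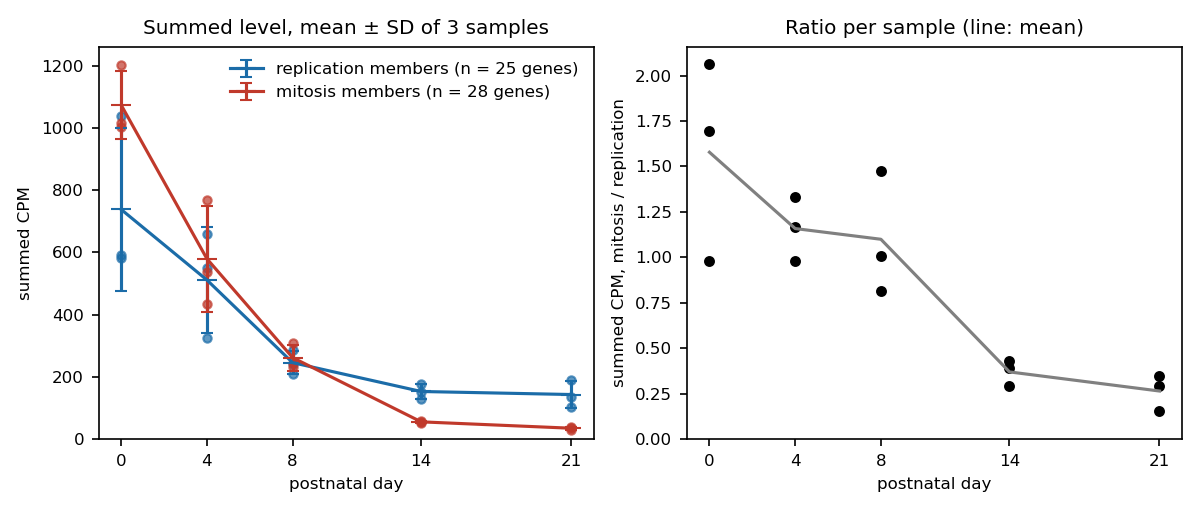
Left, summed CPM of the 25 replication and 28 mitosis members against postnatal day, with each sample as a point and the mean ± SD of 3 samples as a line. Right, the ratio of both sums in each sample, which lies between 0.81 and 2.06 up to P8 and between 0.15 and 0.43 at P14 and P21.

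The late samples were also distinguished by genes with no reads at all. At P0, 2.38% of the 84 values of the mitosis members (28 genes in 3 libraries) were 0. The share was 7.14% at P4 and 8.33% at P8, then 47.6% at P14 and 60.7% by P21. For the replication members the same shares were 9.33%, 6.67%, 17.3%, 25.3% and 30.7%, and for all genes tested they stayed between 6.42% and 11.1%. At P14 and P21 together, 10 members had at most 3 counts in each of the 6 libraries, against 2.04% of all genes. They were Tk1 of the replication genes and Cdc25c, Plk1, Bub1b, Cenpf, Kif2c, Aurkb, Birc5, Kif23 and Kif20a of the mitosis genes. A value of 3 counts corresponded to between 0.38 and 0.88 CPM, depending on the library, and lower levels could not be told from 0 at this depth. This floor covers counting error only.

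**Figure D3:**
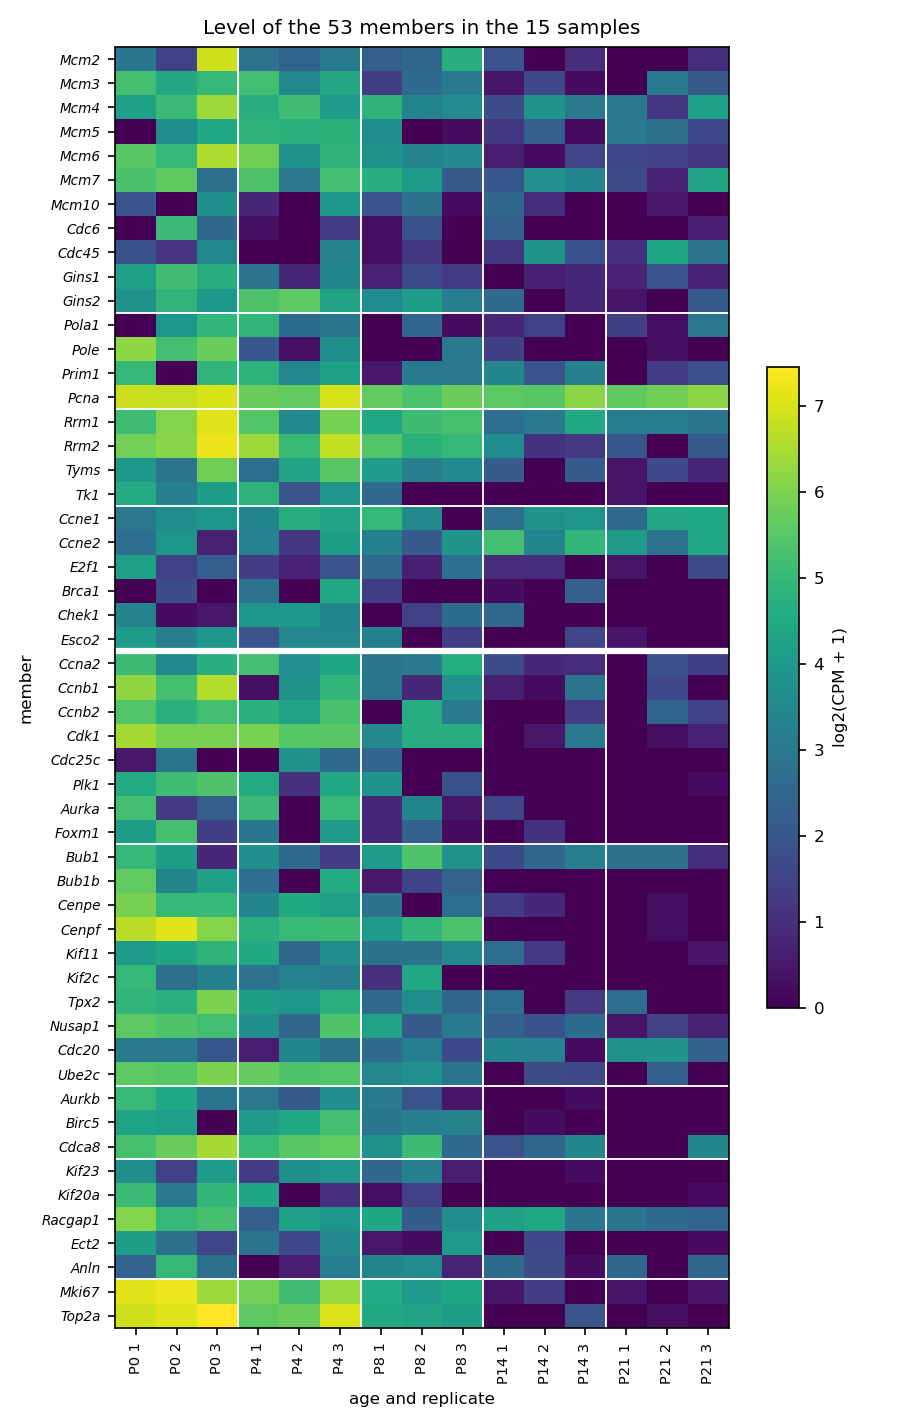
Level of each of the 53 members (rows, replication above the thick line and mitosis below) in the 15 samples (columns, by age and replicate), as log2(CPM + 1). The mitosis rows are dark in most P14 and P21 columns, whereas Pcna stays bright. Ccne1 and Ccne2 are lighter than most mitosis rows at P14, and Ccne1 is dark in a P8 column.

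Helicase genes fell in part. Of the 11 members that load or switch on the helicase, 6 fell (Mcm2, Mcm3, Mcm4, Mcm6, Gins1, Gins2), with slopes between −0.31 and −0.12, and the summed level of all 11 went from 279.6 ± 119.6 CPM at P0 to 32 ± 13.2 at P14 and 38.6 ± 17.4 at P21. Mcm4, the subunit with the highest mean level per length in the group, read 18.2, 33.05 and 81.3 CPM at P0, 24.9, 35 and 16.1 at P4, 27.6, 9.33 and 11.2 at P8, 2.39, 13.6 and 6.9 at P14 and 7.0, 1.27 and 17.9 at P21. Its level fell by 0.12 ± 0.034 log2 units a day (edgeR, adjusted p = 0.0162), with overlap between early and late samples. Mcm2, a subunit that also binds histones, read 6.52, 1.78 and 118 CPM at P0, 6.12, 4.26 and 7.18 at P4, 3.82, 4.57 and 24.9 at P8, 2.76, 0 and 0.959 at P14 and 0, 0 and 0.96 at P21. The value of P0 replicate 3 stood apart from the other P0 samples, and Mcm2 fell by 0.31 ± 0.070 log2 units a day (edgeR, adjusted p = 0.00238). Without that library neither gene passed the threshold (slope −0.23 and adjusted p = 0.0971 for Mcm2, −0.090 and 0.0769 for Mcm4, edgeR). Without the P0 time point the calls for Mcm3, Mcm4 and Gins1 were lost (edgeR, adjusted p = 0.123, 0.160 and 0.302), and that for Gins2 was lost with time as log2(day + 1) (edgeR, adjusted p = 0.0982). Mcm6 read 45.2, 30.5 and 90.8 CPM at P0, 55.5, 13.04 and 27.9 at P4, 13.5, 9.14 and 10.3 at P8, 0.552, 0.191 and 1.92 at P14 and 2.0, 1.69 and 1.28 at P21, so that each late sample lay below each sample of P0, P4 and P8. It fell by 0.27 ± 0.041 log2 units a day (edgeR, adjusted p = 5.19e-05), the smallest adjusted p of the replication genes. Mcm5, Mcm7, Mcm10 and Cdc6, which brings the MCM ring to the origin, had slopes of −0.11 ± 0.069, −0.11 ± 0.043, −0.20 ± 0.11 and −0.24 ± 0.095 and did not pass the test. Cdc45 had a slope of 0.060 ± 0.068 log2 units a day (edgeR, adjusted p = 0.569) and its highest mean at P21. Gins2 shares 67.3% of its exon bases with the opposite-strand gene Gse1, and whether counting used strand is not given in the sources used here.

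Of the 4 polymerase, primase and clamp genes, 1 fell. Pole, the catalytic subunit of the leading-strand polymerase, read 71.7, 36.6 and 52.96 CPM at P0, 3.18, 0.258 and 11.97 at P4, 0, 0 and 7.04 at P8, 1.65, 0 and 0 at P14 and 0, 0.212 and 0 at P21 and fell by 0.44 ± 0.079 log2 units a day (edgeR, adjusted p = 3.36e-04). The 3 P0 samples were above all 12 others, and without the P0 time point the slope was −0.33 with an adjusted p of 0.0794 (edgeR). Pcna, the sliding clamp, which also serves DNA repair, had the highest mean level per length of all 53 members (30.3 RPKM, reads per kilobase of exon in a library scaled for depth). It read 113, 109 and 126 CPM at P0, 52.6, 49.98 and 128 at P4, 49.7, 39.8 and 53.97 at P8, 46.9, 44.9 and 69.98 at P14 and 47.7, 56.1 and 70.7 at P21. The slope of Pcna was −0.044 ± 0.016 log2 units a day (edgeR, adjusted p = 0.0542), just outside the threshold, and 8 alternatives brought it inside, 4 of them by leaving out 1 library (P4 replicate 1, P4 replicate 2, P8 replicate 2 or P21 replicate 3). Other alternatives moved the slope further outside. Over all of them (edgeR, DESeq2 and limma-voom) it shrank to as little as −0.014, and its adjusted p reached 0.691. With 1 library left out the adjusted p was at most 0.122 (edgeR). The mean of Pcna was 47.8 CPM at P8, 53.9 at P14 and 58.1 at P21. Pcna made up 15.8% of the replication sum at P0 and 40.6% at P21. Pola1 and Prim1, of the polymerase alpha complex that lays down primers, had slopes of −0.13 ± 0.072 and −0.17 ± 0.062 (edgeR, adjusted p = 0.189 and 0.0534).

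Genes of nucleotide supply all fell. Their summed level went from 211 ± 126 CPM at P0 to 149.98 ± 80.9 at P4 and 77.4 ± 7.7 at P8, and then to 18.6 ± 9.44 at P14 and 10.8 ± 0.514 by P21. Rrm2 read 57.1, 68.9 and 148 CPM at P0, 81.7, 32.4 and 108 at P4, 41.6, 26.7 and 31.05 at P8, 11.4, 1.15 and 1.34 at P14 and 3.0, 0 and 3.36 at P21, with each late sample below each early one. Rrm2 fell by 0.29 ± 0.044 log2 units a day (edgeR, adjusted p = 6.32e-05), and its partner Rrm1, the large subunit of the same enzyme, fell by 0.16 ± 0.027 log2 units a day (edgeR, adjusted p = 2.04e-04). Rrm1 was above 3 counts in all 15 libraries, whereas Rrm2 had 0 counts in 1 library at P21. Tk1, the thymidine kinase of S phase, read 22.8, 8.51 and 16.6 CPM at P0, 27.2, 2.71 and 13.7 at P4, 5.03, 0 and 0 at P8, 0, 0 and 0 at P14 and 0.333, 0 and 0 at P21 and fell by 0.46 ± 0.098 log2 units a day (edgeR, adjusted p = 0.00158). Only 1 of its 6 late libraries had any count. Against a floor of 3 counts per library, its P0 mean was at least 28.2-fold higher than P14. Tyms, thymidylate synthase, fell by 0.24 ± 0.053 log2 units a day (edgeR, adjusted p = 0.00203).

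Genes that time the start of S phase and guard it had the lowest share of calls among the 9 role groups. Of 6 members, Esco2 alone fell, and the group's summed level was 42.6 ± 11.9 CPM at P0 and 31.4 ± 11.7 at P21. Esco2, which ties sister chromatids together during S phase, read 16.5, 8.51 and 13.9 CPM at P0, 2.94, 9.82 and 9.91 at P4, 8.65, 0 and 1.62 at P8, 0, 0 and 1.92 at P14 and 0.333, 0 and 0 at P21 and fell by 0.33 ± 0.082 log2 units a day (edgeR, adjusted p = 0.00513). Ccne1, cyclin E1, which starts S phase with Cdk2, read 6.9, 12.1 and 14.2 CPM at P0, 9.3, 25.2 and 19.5 at P4, 30.2, 10.3 and 0 at P8, 5.33, 13.2 and 14.2 at P14 and 5.0, 21.6 and 20.95 at P21, and its early and late samples overlapped. Its slope was 0.0053 ± 0.044 log2 units a day (edgeR, adjusted p = 0.949). Ccne2, the second cyclin E, had its highest mean at P14 (36.03, 9.18 and 29.5 CPM) and a slope of 0.075 ± 0.045 log2 units a day (edgeR, adjusted p = 0.251). Ccne2 shares 17.4% of its exon bases with the opposite-strand gene Ints8. Brca1, Chek1 and E2f1 had low and scattered values, with slopes of −0.26 ± 0.14, −0.29 ± 0.12 and −0.15 ± 0.065 that did not pass (edgeR, adjusted p = 0.202, 0.0786 and 0.113).

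**Figure D4:**
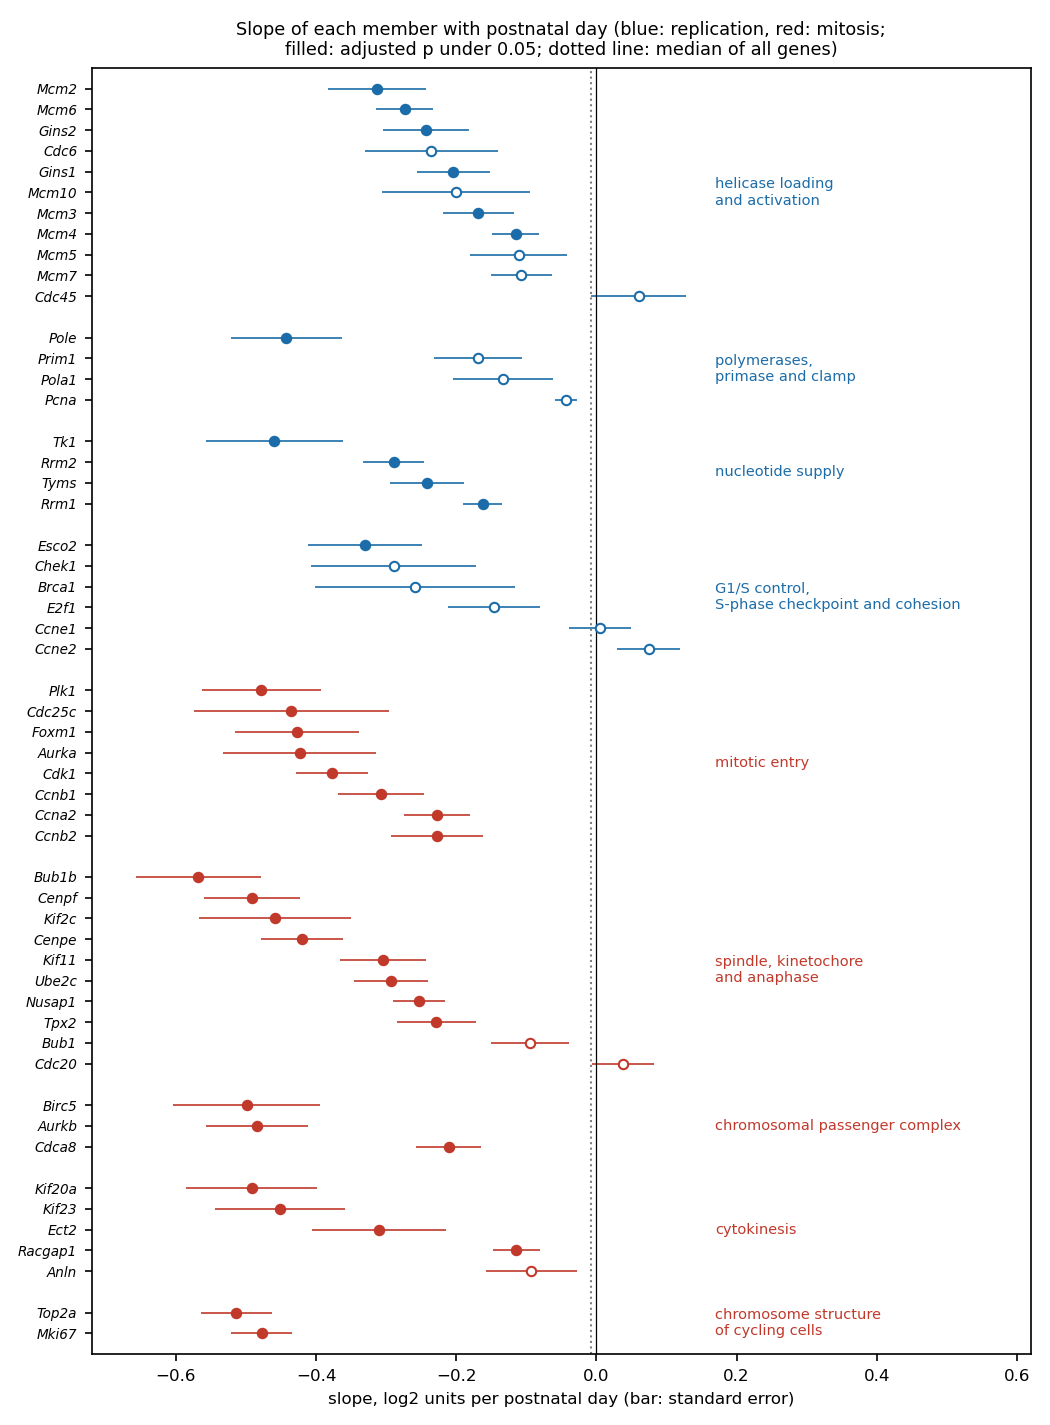
Slope of log2 level per postnatal day for each member, grouped by role, with its standard error as a bar. Filled points passed the test (adjusted p under 0.05), blue marks replication and red mitosis, and the dotted line is the median of all genes. The filled points lie to the left of 0, and the 4 points to the right of 0 are open.

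Mitotic entry genes all fell. The 8 members went from a summed 263 ± 47.9 CPM at P0 to 60.9 ± 15.8 at P8, with 7.66 ± 6.93 left by P14 and 4.49 ± 4.66 by P21. Ccnb2, a B-type cyclin, had the highest mean level per length of the group and read 41.98, 26.3 and 35.8 CPM at P0, 26.2, 18.6 and 38.98 at P4, 0, 23.6 and 7.4 at P8, 0, 0 and 1.53 at P14 and 0, 4.44 and 1.76 at P21. It fell by 0.23 ± 0.066 log2 units a day (edgeR, adjusted p = 0.0149), and each late sample was below each P0 and P4 sample, although 1 P8 library was at 0. Without the P0 time point its call was lost, as was that for Ccnb1, the other B-type cyclin of the list (edgeR, adjusted p = 0.0687 and 0.0736). Plk1, the kinase that prepares centrosomes and chromosomes for mitosis, read 22.6, 34.04 and 40.2 CPM at P0, 22.5, 1.03 and 20.5 at P4, 13.5, 0 and 2.71 at P8, 0, 0 and 0 at P14 and 0, 0 and 0.16 at P21 and fell by 0.48 ± 0.085 log2 units a day (edgeR, adjusted p = 3.22e-04). With all P14 libraries at 0, its P0 mean was at least 57.0-fold higher than at P14, taken at a floor of 3 counts per library. Cdk1, the kinase at the head of mitotic entry, read 86.1, 61.1 and 61.5 CPM at P0, 60.7, 44.2 and 45.6 at P4, 10.5, 23.99 and 24.01 at P8, 0, 0.383 and 6.9 at P14 and 0, 0.212 and 0.64 at P21 and fell by 0.38 ± 0.051 log2 units a day (edgeR, adjusted p = 1.93e-05). The P8 samples of Cdk1 lay between the early and the late ones with no overlap. Foxm1, a transcription factor of mitotic genes, had 0 counts in all P21 libraries and fell by 0.43 ± 0.089 log2 units a day (edgeR, adjusted p = 0.0013). Ccna2 shares exon bases with Exosc9 and Cdc25c with Gm3550. Reads that fitted several genes were tallied as ambiguous and are not part of the gene counts. The call for Cdc25c was lost without P4 replicate 2, P14 replicate 1 or 3, or any 1 of the P21 libraries (edgeR, adjusted p from 0.0501 to 0.0632), and also with DESeq2, with limma-voom and with time as log2(day + 1) in edgeR (adjusted p = 0.261).

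Spindle and kinetochore genes fell with 2 exceptions. Of the 10 members 8 fell, with slopes between −0.57 and −0.23. Ube2c, the ubiquitin-conjugating enzyme of the anaphase-promoting complex, had the highest mean level per length of the group and read 46.8, 43.9 and 62.1 CPM at P0, 49.9, 40.8 and 41.9 at P4, 10.1, 12.8 and 6.5 at P8, 0, 2.3 and 2.11 at P14 and 0, 3.81 and 0 at P21. It fell by 0.29 ± 0.053 log2 units a day (edgeR, adjusted p = 3.64e-04), with the late samples below all others, and it shares exon bases with Tnnc2. Bub1b, a checkpoint protein that holds back anaphase, had the steepest slope of all members and read 48.7, 9.5 and 18.2 CPM at P0, 5.63, 0 and 22.7 at P4, 0.402, 1.9 and 4.15 at P8, 0, 0 and 0 at P14 and 0, 0 and 0 at P21. It fell by 0.57 ± 0.089 log2 units a day (edgeR, adjusted p = 8.85e-05), and all 6 late libraries were at 0. Cenpf, a kinetochore and matrix protein, read 101, 136 and 65.5 CPM at P0, 25.7, 31.4 and 33.5 at P4, 14.9, 29.5 and 39.9 at P8, 0, 0 and 0 at P14 and 0, 0.212 and 0 at P21 and fell by 0.49 ± 0.069 log2 units a day (edgeR, adjusted p = 2.80e-05). Of its 6 late libraries 5 were at 0 and the other held 1 count. Bub1 read 29.9, 17.02 and 0.809 CPM at P0, 12.5, 4.91 and 1.54 at P4, 16.1, 40.9 and 13 at P8, 2.21, 4.78 and 8.05 at P14 and 5.67, 5.71 and 0.96 at P21, with its highest mean at P8, and its slope was −0.095 ± 0.055 log2 units a day (edgeR, adjusted p = 0.23). Cdc20, which activates the anaphase-promoting complex and is also present in neurons, read 7.09, 7.52 and 3.03 CPM at P0, 0.489, 9.43 and 5.81 at P4, 5.03, 8.38 and 2.17 at P8, 9.19, 8.8 and 0.192 at P14 and 13, 13.5 and 4.0 at P21. The slope of Cdc20 was 0.038 ± 0.044 log2 units a day (edgeR, adjusted p = 0.577), the only positive one among the mitosis members, and its early and late samples overlapped.

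All 3 members of the passenger complex and 4 of the 5 cytokinesis members fell. Cdca8, also called borealin, read 37.8, 51.5 and 85.9 CPM at P0, 31.8, 44.7 and 48.9 at P4, 12.9, 33.5 and 5.05 at P8, 2.76, 4.59 and 9.59 at P14 and 0, 0 and 9.6 at P21 and fell by 0.21 ± 0.046 log2 units a day (edgeR, adjusted p = 0.00212). Birc5, or survivin, read 19.2, 17.6 and 0 CPM at P0, 16.4, 20.8 and 35.4 at P4, 6.44, 8.57 and 9.03 at P8, 0, 0.191 and 0 at P14 and 0, 0 and 0 at P21, with 0 in 1 P0 library and 0 or 1 count in all late ones. It fell by 0.50 ± 0.10 log2 units a day (edgeR, adjusted p = 0.00143), and its call was lost with limma-voom (adjusted p = 0.120) and with time as log2(day + 1) in edgeR (adjusted p = 0.128). Kif20a, a kinesin of the spindle midzone, read 32.8, 7.52 and 29.7 CPM at P0, 19.8, 0 and 1.03 at P4, 0.201, 1.71 and 0 at P8, 0, 0 and 0 at P14 and 0, 0 and 0.16 at P21 and fell by 0.49 ± 0.094 log2 units a day (edgeR, adjusted p = 6.25e-04), and it shares exon bases with Cdc23. Racgap1, of the midzone complex centralspindlin, read 65.9, 29.9 and 36.8 CPM at P0, 3.67, 18.3 and 14.02 at P4, 19.7, 3.62 and 11.7 at P8, 18.2, 21.2 and 6.52 at P14 and 6.67, 4.87 and 4.32 at P21. It fell by 0.11 ± 0.033 log2 units a day (edgeR, adjusted p = 0.0149), less steeply than its complex partner Kif23 by the values (−0.45 ± 0.092), a difference that was not tested. Its P4, P8 and P14 samples overlapped, and without P0 replicate 1 the slope was −0.091 with an adjusted p of 0.0696 (edgeR). Without the P0 time point the slope of Racgap1 was −0.053 (edgeR, adjusted p = 0.507). Ect2, which activates the contractile ring, fell by 0.31 ± 0.096 log2 units a day (edgeR, adjusted p = 0.0216), a call lost without P0 replicate 1 or any 1 of the P21 libraries (edgeR, adjusted p from 0.0512 to 0.0553) and with time as log2(day + 1) (edgeR, adjusted p = 0.166). Anln, which links actin and septins, had a slope of −0.093 ± 0.066 log2 units a day (edgeR, adjusted p = 0.335). Racgap1 and Bub1 were the 2 mitosis members above 3 counts in all 15 libraries, and Mcm4, Pcna and Rrm1 the 3 replication members.

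Mki67 and Top2a, used as marks of cycling cells, had the smallest adjusted p-values of the list. Mki67 read 134, 152 and 81.9 CPM at P0, 58.95, 35 and 77.4 at P4, 23.1, 15.2 and 20.04 at P8, 0.368, 1.53 and 0 at P14 and 0.333, 0 and 0.32 at P21 and fell by 0.48 ± 0.044 log2 units a day (edgeR, adjusted p = 2.62e-07). Top2a read 120.01, 134 and 174 CPM at P0, 46.2, 52.8 and 129.6 at P4, 21.9, 19.4 and 16.6 at P8, 0, 0 and 2.88 at P14 and 0, 0.212 and 0 at P21 and fell by 0.51 ± 0.050 log2 units a day (edgeR, adjusted p = 5.94e-07). In both genes the 5 ages fell in order by mean, the P8 samples were below all P0 and P4 samples, and the late samples were below all P8 samples.

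Of the 4 steps between neighbouring ages, the one from P8 to P14, which is also longer in days than those before it, had the largest median fall. Between P0 and P4 edgeR called 0 members in either direction (2 lower and 0 higher at an unadjusted p under 0.05), while DESeq2 called 1 and limma-voom 2 lower. Over all genes, 0.231% were lower and 1.74% higher. The median step over the members was −0.62 log2 units, −0.31 for replication and −0.998 for mitosis. Between P4 and P8 edgeR, DESeq2 and limma-voom each called 0 members (3, 6 and 13 lower at an unadjusted p under 0.05), against 0.252% lower and 0.882% higher of all genes, with a median step of −1.16 log2 units. Between P8 and P14, 4 members were lower and 0 higher (18 lower unadjusted), against 1.38% lower and 1.29% higher of all genes. DESeq2 called 14 and limma-voom 4 lower. The 4 members were Mcm6 (−3.60 log2 units, adjusted p = 0.0206), Mki67 (−4.90, adjusted p = 0.00153), Top2a (−4.31, adjusted p = 0.0126) and Cenpf (edgeR, adjusted p = 1.24e-04), whose P8 mean was at least 49.6-fold higher than at P14, taken at a floor of 3 counts per library. With values under 3 counts raised to 3 counts, the median step of the group means from P8 to P14 was −1.20 log2 units for replication and −2.16 for mitosis. On the same scale the median step from P4 to P8 was −1.06 for replication and −1.32 for mitosis. The larger fall from P8 to P14 was thus mainly that of the mitosis members, while the replication medians of these steps lay close together. Between P14 and P21, 0 members were called by edgeR (5 lower and 0 higher unadjusted), DESeq2 (6 lower unadjusted) or limma-voom (0 unadjusted), against 0.266% lower and 0.063% higher of all genes.

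Samples of the ends of the course were then compared without a model. In 21 members (7 replication, 14 mitosis) each of the 6 samples of P14 and P21 was below each of the 6 samples of P0 and P4, a pattern found in 7.13% of all genes, and in 0 members each was above, a pattern found in 8.28%. By mean level, 40 members were highest at P0, 9 at P4, 1 at P8 (Bub1), 1 at P14 (Ccne2) and 2 at P21 (Cdc45 and Cdc20). Spread between replicates was wide: the median biological coefficient of variation of the members was 0.99, against 0.57 for all genes tested, and it was 1.08 for replication and 0.97 for mitosis.

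Other genes of the same pathways, were listed by function. Of 30 further replication genes tested, 8 fell and 1 rose, with a median slope of −0.050. Of 34 further mitosis genes, 25 fell and 2 rose, with a median of −0.31. Over all genes tested, 14.1% fell and 12.1% rose. The steepest falls were those of Cdca5 (slope −0.65 ± 0.11), which protects cohesin, Pbk (−0.59 ± 0.066), a mitotic kinase, and Aspm (−0.52 ± 0.087), a spindle pole protein, and in the replication list Chaf1b (−0.61 ± 0.14), a histone chaperone subunit, Uhrf1 (−0.41 ± 0.061), which carries DNA methylation through replication, and Cdc7 (−0.14 ± 0.047), the kinase that fires origins. Rpa1, which coats single-stranded DNA in replication and repair, rose by 0.057 ± 0.019 log2 units a day (edgeR, adjusted p = 0.0311). That call was lost without P0 replicate 2, P4 replicate 1, or P21 replicate 1 or 3 (edgeR, adjusted p from 0.0501 to 0.110), and the call for Cdc7 without any 1 of the P21 libraries (0.0543 to 0.0839). Nek2, a centrosome kinase, read 0, 3.56 and 4.04 CPM at P0, 4.16, 0 and 6.5 at P4, 2.82, 4.38 and 7.22 at P8, 66.9, 17.2 and 31.1 at P14 and 76.3, 65.2 and 76.1 at P21 and rose by 0.26 ± 0.046 log2 units a day (edgeR, adjusted p = 3.22e-04). Each P14 and P21 sample of Nek2 was above each earlier sample. Pttg1, securin, read 33.2, 67.9 and 26.9 CPM at P0, 31.8, 77.2 and 28.2 at P4, 89.7, 85.1 and 71.1 at P8, 73.9, 104 and 106 at P14 and 139, 142 and 96.4 at P21 and rose by 0.078 ± 0.017 log2 units a day (edgeR, adjusted p = 0.00201).

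Of 17 G1 genes tested, 9 fell, among them Ccnd2, a D-type cyclin, with 154, 137 and 184 CPM at P0, 226, 193 and 299 at P4, 50.3, 150.4 and 119 at P8, 32.2, 18.7 and 10.5 at P14 and 5.33, 7.19 and 3.68 at P21 (slope −0.27 ± 0.032), and the repressive E2F factors E2f7 (−0.42 ± 0.083) and E2f8 (−0.38 ± 0.13). The call for E2f8 was lost without P0 replicate 3, P4 replicate 2 or any 1 library of P14 or P21 (edgeR, adjusted p from 0.0530 to 0.0770). Cdk4, the kinase partner of the D cyclins and the G1 gene with the highest mean level per length, fell by 0.15 ± 0.015 log2 units a day (edgeR, adjusted p = 5.76e-07), with means of 247 CPM at P0 and 33.5 CPM at P21. Of 10 inhibitors tested, 3 fell and 1 rose, beside 14.1% and 12.1% of all genes. Cdkn1c (p57) read 200.3, 169 and 140.5 CPM at P0, 109.6, 123 and 133 at P4, 27.97, 31.04 and 21.5 at P8, 11.2, 8.42 and 4.79 at P14 and 5.33, 2.96 and 4.64 at P21 and fell by 0.28 ± 0.022 log2 units a day (edgeR, adjusted p = 5.26e-08), while Cdkn1b (p27) rose by 0.066 ± 0.017 log2 units a day (edgeR, adjusted p = 0.00786). The call for Cdkn1b was lost without the P0 time point (slope 0.065, edgeR, adjusted p = 0.0524). Btg1, an antiproliferative gene, and Cdkn2c (p18) had slopes of −0.084 ± 0.015 and −0.19 ± 0.069. The call for Cdkn2c was lost without P0 replicate 2 or 3, P4, P8 or P14 replicate 2, or any 1 of the P21 libraries (edgeR, adjusted p from 0.0511 to 0.102). Cdkn2d (p19), the inhibitor with the highest mean level per length, had a slope of 0.015 ± 0.017 log2 units a day (edgeR, adjusted p = 0.586). Cdk4 shares 19.7% of its exon bases with Tspan31 and E2f8 shares 11.2% with Gm2788, both on the opposite strand.

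**Figure D5:**
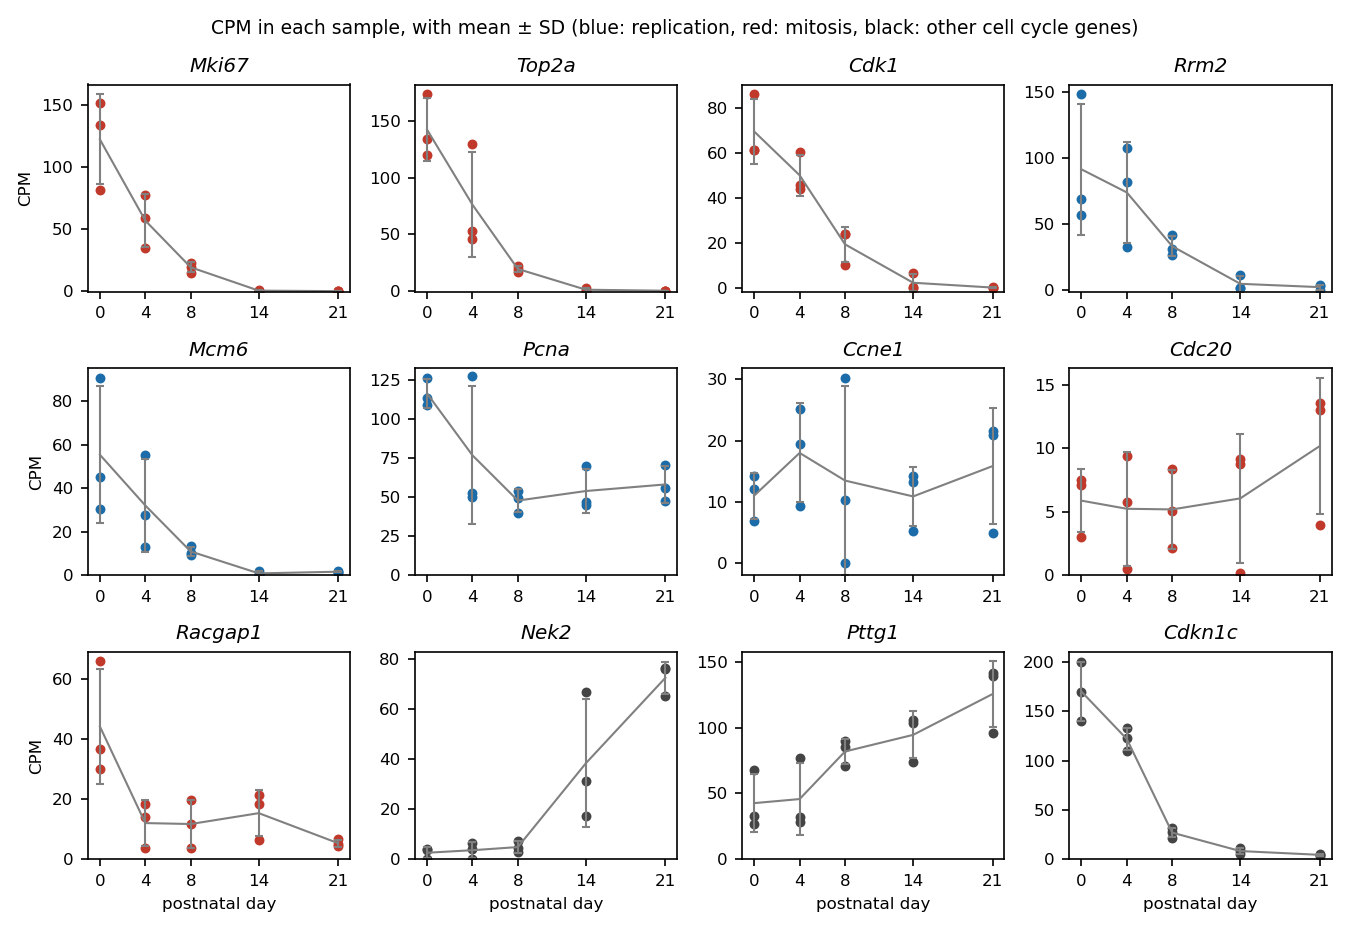
CPM of 12 genes in each sample against postnatal day, with the mean ± SD of 3 samples in grey. Mki67, Top2a, Cdk1, Rrm2 and Mcm6 come close to 0 at P14 and P21, Pcna, Ccne1 and Cdc20 keep means above 0 throughout, and Nek2 and Pttg1 rise.

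Markers of other cell types of the cerebellum were measured in the same libraries, since a captured cell can carry neighbours. Of the 8 markers of granule cell precursors, Atoh1, the defining factor, had 0 counts in all 15 libraries, 2 (Gli2 and Pax6) fell, and the summed level was 278 to 477 CPM at P0, 254 to 414 at P4 and 288 to 404 at P8. By P14 it was 158 to 317 and by P21 118 to 167 CPM. Of the 4 markers of neural progenitors (Nes, Sox2, Prom1, Vim), 2 (Nes and Vim) fell and none was at 0 throughout. Another marker of this list had a positive slope of 0.14 log2 units a day, with an unadjusted p under 0.05 in edgeR, and was not called after adjustment. The sum of the 4 markers was 707 to 850.5 CPM at P0, 394 to 708 at P4, 235 to 399 at P8, 218 to 275 by P14 and 102 to 199 by P21. This sum, though not each marker, went down alongside the cell cycle genes. Of the markers of young interneurons and their precursors, Ptf1a was at 0 in 12 and Neurog1 in 14 of 15 libraries. Pax2, of the same list, read 3.45, 10.5 and 11.3 CPM at P0, 13.2, 22.7 and 5.81 at P4, 6.84, 6.66 and 14.4 at P8, 6.25, 7.46 and 0.192 at P14 and 2.0, 0 and 2.4 at P21, with its lowest mean at P21 and a slope of −0.14 ± 0.059 log2 units a day (edgeR, adjusted p = 0.093). The 5 markers of oligodendrocyte precursors summed to 19.2 to 29.1 CPM at P0, 43.1 to 134 at P4 and 43.3 to 69.9 at P8. Their sum was 12.7 to 29.5 CPM at P14 and 11.3 to 31.03 at P21. Of the 8 markers of Bergmann glia and astrocytes, 2 fell and 2 rose, with a sum of 3895 to 5607 CPM at P0, 8004 to 9608 at P8 and 2789 to 4245 at P21. Of the 4 vascular markers Pecam1 fell, with a sum of 33.4 to 133 CPM at P0 and 19.03 to 35.3 at P21. The 4 microglial markers summed to at most 25.4 CPM in any library, and edgeR called 0 of them (0 at an unadjusted p under 0.05). Most markers of cells that mature after birth went the other way. Of the 4 markers of granule neurons 3 rose, with a sum over all 4 of 149.7 to 275 CPM at P0, 425 to 666 at P8, 370 to 921 at P14 and 249 to 498 at P21. This sum did not rise steadily, and its P0 and P21 samples overlapped. All 5 markers of oligodendrocytes rose, summing to 13.6 to 35.8 CPM at P0 and 395 to 844 at P21. The part of these cells in the fall of the cell cycle genes was not tested, and neither was that of the capture of clusters at P0. Without the P0 time point, edgeR called 9 replication and 20 mitosis members as falling and 0 as rising. Of the 12 replication calls made with all ages, those for Mcm3, Mcm4, Gins1 and Pole were lost, so the 9 include a member not called before. Of the mitosis calls, those for Ccnb1, Ccnb2, Tpx2 and Racgap1 were lost. Kif20a, called with all ages, did not pass the filter on low counts without P0 and was not fitted there.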

How the data were processed

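RNA-seq was measured in 15 libraries of laser-captured mouse PCs, 3 biological replicates at each of 5 ages, with groups taken from the sample titles. Per the labels and the study's methods, the authors trimmed reads (cutadapt 1.2.1), aligned them to GRCm38 (GSNAP) and deposited raw counts per Ensembl gene (HTSeq 0.5.3p9). The annotation release and strand setting are not given in the sources used here. Rows that name no gene held 18.2% to 31.0% of the counts and were left out. Their share differed with age, with 31.0%, 28.7% and 25.3% at P0 and 18.2% to 20.7% at P14 and P21. Genes were named with GENCODE M21 (36639 of 38561 matched). The members and all gene lists were chosen with earlier results of these data known.

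Counts were tested with edgeR 4.0.16 (R 4.3.3): filterByExpr by age, TMM factors, quasi-likelihood F tests of a slope per postnatal day, of age as a factor and of the 4 steps between neighbouring ages, with all 15 samples and no covariate, and Benjamini-Hochberg adjustment over 14293 genes at 0.05. CPM are counts divided by total counts on genes times the TMM factor, scaled to 1000000 per library. RPKM divide CPM on total counts by summed exon length. Slopes have standard errors, taken as the absolute slope divided by the square root of its F statistic, and means have SDs. In each role group the member with the highest mean RPKM and the one with the steepest slope were given in every sample, with Mki67 and Top2a. Mcm6, Cdk1, Cenpf, Bub1 and Cdc20, and the other members given with a slope, were added after their values were seen. In the pathway lists up to 3 called genes in each direction and the G1 gene and inhibitor with the highest RPKM were named. Alternatives were DESeq2 1.42.0, limma-voom (limma 3.58.1), DESeq2's size factors, no filter, a replicate block, log2(day + 1), leaving out P0 and leaving out each sample. The scripts were tested on simulated counts in which 200 genes changed. For a slope of 0.1 log2 units a day edgeR recovered 51.5% of them and DESeq2 58.5%, with 0.96% and 13.3% of the calls false. For a step of 2 log2 units between P4 and P8 edgeR recovered 41% and DESeq2 55.5%, with 2.38% and 32.7% of the calls false. Steps that edgeR did not call may thus be real, and DESeq2's larger counts of steps may hold false calls. Replicates of an age differed by more than counting noise (15 pairs). At a depth of 3409371 to 7814951 counts on genes, 3 counts stood for 0.38 to 0.88 CPM, so lower levels could not be told from 0. Of the marker lists of other cell types, 1 is reported here only in part.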

Additional observations from a re-analysis of the deposited data

How the results depend on the processing

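Among the members, 6 replication and 14 mitosis genes fell under all 22 alternatives, and 10 and 22 when each of the 15 samples was left out in turn. Kif20a was fitted in only 21 alternatives and fell in each of them, so it is not among those 14. The fit it lacks is the one without P0, where it did not pass the filter on low counts. The number of falling replication members was 9 (without P0) to 15 (DESeq2) and that of falling mitosis members 19 (log2(day + 1)) to 25, against 12 and 25, and no alternative gave a rising one. DESeq2 called 14 members lower from P8 to P14 against 4, and 1 lower from P0 to P4 (limma-voom 2) against 0. Without P0, 5 replication members differed between ages against 10. On total counts the summed mitosis CPM was 1202 at P0 and 51.8 at P14, beyond 1 SD of the values with TMM. The slope of Ccne1, not called in any fit, turned to −0.0088 without P0 and ranged from −0.0085 to 0.021 with 1 sample left out, below 0 without P0 replicate 1 (−0.0043), P21 replicate 2 or P21 replicate 3 (−0.0074), and that of Cdkn2d to −0.015 without P0. The causes were not tested. Of 788 refits of 36 of the named slopes, 731 kept direction and side of the threshold. Calls for Mcm4, Racgap1, Birc5, Cdc25c, Ect2, E2f8, Cdkn2c, Cdc7, Rpa1 and Chaf1b were lost under 2 or more alternatives. Without P0 the calls for Mcm3, Mcm4, Gins1, Pole, Ccnb1, Ccnb2, Tpx2, Racgap1 and Cdkn1b were lost, and with log2(day + 1) those for Gins2, Aurka, Cdc25c, Kif2c, Birc5, Kif23, Ect2, Chaf1b, Cdc7, Rpa1, E2f8 and Cdkn2c. DESeq2 lost Cdc25c and E2f8, and limma-voom Cdc25c, Birc5, Chaf1b, Cdc7 and E2f8.

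Replicate numbers did not pair the samples: deviations from the age means correlated at −0.0036 on average for the same number (30 pairs) and 0.0018 for other numbers, and 3 of 15 samples were closest to their own number. With the replicate number as a block, 13 replication and 25 mitosis members fell. Without the 6 members that share 10% or more of their exon bases with another gene, an alternative chosen after seeing the data, 32 fell. Late levels of the mitosis genes were limited by depth, since most lay at or under 3 counts.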

Other observations

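The leading gene of each sum changed with age. Top2a contributed most to the mitosis sum at P0 (13.3%) and P4 (13.2%), Cenpf at P8 (10.7%), Racgap1 at P14 (27.7%) and Cdc20 at P21 (29.2%), whereas Pcna led the replication sum at all 5 ages. Of the further replication genes that were not called, Rfc1, the large subunit of the clamp loader, had a slope of −0.0054 ± 0.012 and read 64.03, 48.5 and 63.3 CPM at P0 and 57.01, 54.8 and 48.6 at P21, and Orc3 and Orc5, of the origin recognition complex, had slopes of 0.0089 ± 0.022 and −0.013 ± 0.017. None of these 3 passed the test, and they were chosen after their values were seen.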
